A study of Homo sapiens with 18 samples.

Results

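The genes of the m6A writer complex were followed through 3 related human breast cell lines, each with a negative CRISPR group and a group labelled METTL3 knockdown. They are METTL3, METTL14, WTAP, VIRMA, RBM15, RBM15B, ZC3H13, CBLL1 and METTL16, chosen by symbol with earlier results of these data known. All 9 were present among the 35933 genes that have normalized counts in all 18 libraries, and all 9 passed the filter on low values in every comparison (a mean of at least 10). MCF10A cells come from breast epithelium that became immortal on its own and form no tumours, MCF10AT1 carries an integrated mutated HRas, and MCF10CA1h was grown out of MCF10AT1 through serial mouse xenografts. Cells of all 6 groups had received a CRISPR/Cas9 construct that also makes mCherry, with a control guide in the negative CRISPR groups and a guide to exon 1 of METTL3 in the others. They were sorted for mCherry and then cloned, so each group of 3 libraries (replicates a, b and c) represents 1 clonal line and its spread holds no difference between clones. Nothing in the labels says that the replicates were separate cultures, so p-values measure only the spread between these samples, which may be technical.

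N6-methyladenosine (m6A) is the most common internal modification of mRNA. It is added in the nucleus by a heterodimer in which METTL3 holds the catalytic site and METTL14 helps to bind the RNA. WTAP ties this core to a larger set of regulatory proteins, namely VIRMA, the zinc finger protein ZC3H13, the E3 ligase CBLL1 (HAKAI) and the RNA-binding proteins RBM15 and RBM15B. METTL16 works apart from this complex and methylates the U6 small nuclear RNA and hairpins in the mRNA of MAT2A, which makes the methyl donor S-adenosylmethionine (SAM).

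METTL3 lies on the minus strand of chromosome 14 (hg38 chr14:21498133-21511342). The coding part of its exon 1, the exon the guide was directed to, is printed here because it is the region that the knockdown constructs addressed. It runs from position 21511223 down to 21511124 and is written 5′ to 3′ on the coding strand, with the start codon in capitals.
METTL3 exon 1, coding part: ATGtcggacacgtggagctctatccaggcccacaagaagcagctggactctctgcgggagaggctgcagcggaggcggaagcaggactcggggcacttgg
The values used below are sums over a gene's transcripts. They show neither whether this sequence was altered nor how much protein was made, and so check the labels in RNA amount alone.

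The libraries differed in ways that touch several of the genes. Their normalized counts summed to between 21347352 and 31681834. Protein-coding genes were put in 5 equal bins by transcript length, and a tilt was computed for each library as the median log2 deviation from the gene means in the longest bin minus that in the shortest. It ranged from -1.29 to 1.11. Within MCF10AT1 negative CRISPR it was -0.49 in replicate a and -1.19 in replicate b, but 0.74 in replicate c, which stood apart. Transcripts low in GC moved with the long ones. MCF10A replicate a of the negative CRISPR group, at 0.27, also lay below replicates b and c, at 1.10 and 1.11. All 12 breast epithelial markers were detected in every group. In the libraries labelled MCF10AT1 METTL3 knockdown, 8 of them (EPCAM, CDH1, ESRP1, KRT5, KRT14, KRT17, KRT6A and LAMB3) lay below the controls of that line without overlap, while 4 (KRT8, KRT18, TP63 and ITGB4) overlapped. Of the overlapping genes, TP63 and ITGB4 had higher medians with the knockdown label, at 517 against 216 and 92425 against 29884. EPCAM was between 78.8 and 126, CDH1 between 11.6 and 79.2 and ESRP1 between 0 and 25.4. The negative CRISPR libraries of MCF10AT1 had at least 3494, 2105 and 1584 for these 3 genes. The 12 epithelial markers summed to between 107200 and 203100 in that knockdown group, against between 170600 and 251500 in its controls. ITGB4 alone was between 48088 and 167977 in that knockdown group and between 21514 and 51829 in its controls. The sum therefore does not describe the list. The 10 fibroblast or mesenchymal markers summed to between 62470 and 75290 in that knockdown group and to between 3719 and 5073 in its controls. Most of this was VIM, at 57647 to 70635 against 3055 to 4640. THY1, COL3A1 and COL6A3 also lay above the controls without overlap. DCN and PDGFRA overlapped with higher medians, and COL1A1 and PDGFRB with lower ones, at 77.0 against 94.3 and 16.9 against 24.2. COL1A2 and LUM were below 10 in both groups. The endothelial markers CDH5 and VWF and the blood cell markers PTPRC and CD3E were below 10 in every library. The lists were not absent as a whole, since PECAM1 ran from 15.9 to 849 and CD68 from 145 to 2006. PECAM1 was between 15.9 and 196 in the MCF10A controls and between 332 and 531 in the libraries labelled knockdown. In bulk RNA, fewer cells of a type and less RNA per cell cannot be told apart.

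METTL3 has the identifier ENSG00000165819. On the same build, the other genes are METTL14 (ENSG00000145388) at chr4:118685392-118715433 on the plus strand, WTAP (ENSG00000146457) at chr6:159725585-159756319 on the plus strand, VIRMA (ENSG00000164944) at chr8:94487689-94553529 on the minus strand and RBM15 (ENSG00000162775) at chr1:110338506-110346681 on the plus strand. The rest are RBM15B (ENSG00000259956) at chr3:51391285-51397908 on the plus strand, ZC3H13 (ENSG00000123200) at chr13:45954465-46052759 on the minus strand, CBLL1 (ENSG00000105879) at chr7:107743073-107761667 on the plus strand and METTL16 (ENSG00000127804) at chr17:2405562-2511891 on the minus strand.

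Per kilobase of transcript, which allows genes to be compared with each other, the complex was far from evenly expressed. WTAP had the highest level, with a mean of 738 normalized counts per kilobase over the 18 libraries, and ranked first among the 9 genes in 17 of them. METTL3 followed at 432 and RBM15B at 380. VIRMA and METTL16 were in the middle, at 188 and 168, followed by ZC3H13 at 116, CBLL1 at 95.6 and RBM15 at 76.9. METTL14, the partner of METTL3, had the lowest level, at 45.4, and ranked last in 16 libraries. Per kilobase METTL3 therefore stood above METTL14 in every library, by 3.22 to 39.3 times. Among negative CRISPR cells, the median ratio came to 4.14 for MCF10A, to 16.7 for MCF10AT1 and to 11.4 for MCF10CA1h. METTL14 followed the length tilt of the libraries (r 0.93, described below), which was higher in the MCF10A than in the MCF10CA1h controls. The part of the tilt in these ratios was not tested. The MCF10AT1 value rests on single libraries, since its replicates a, b and c had ratios of 16.7, 39.3 and 5.93, which span those of MCF10CA1h, 10.1 to 14.4. RBM15B exceeded its relative RBM15 by 2.63 to 7.40 times. These ratios rest on 1 reference transcript per gene for the length, and other transcripts of the genes would shift them.

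**Figure D1:**
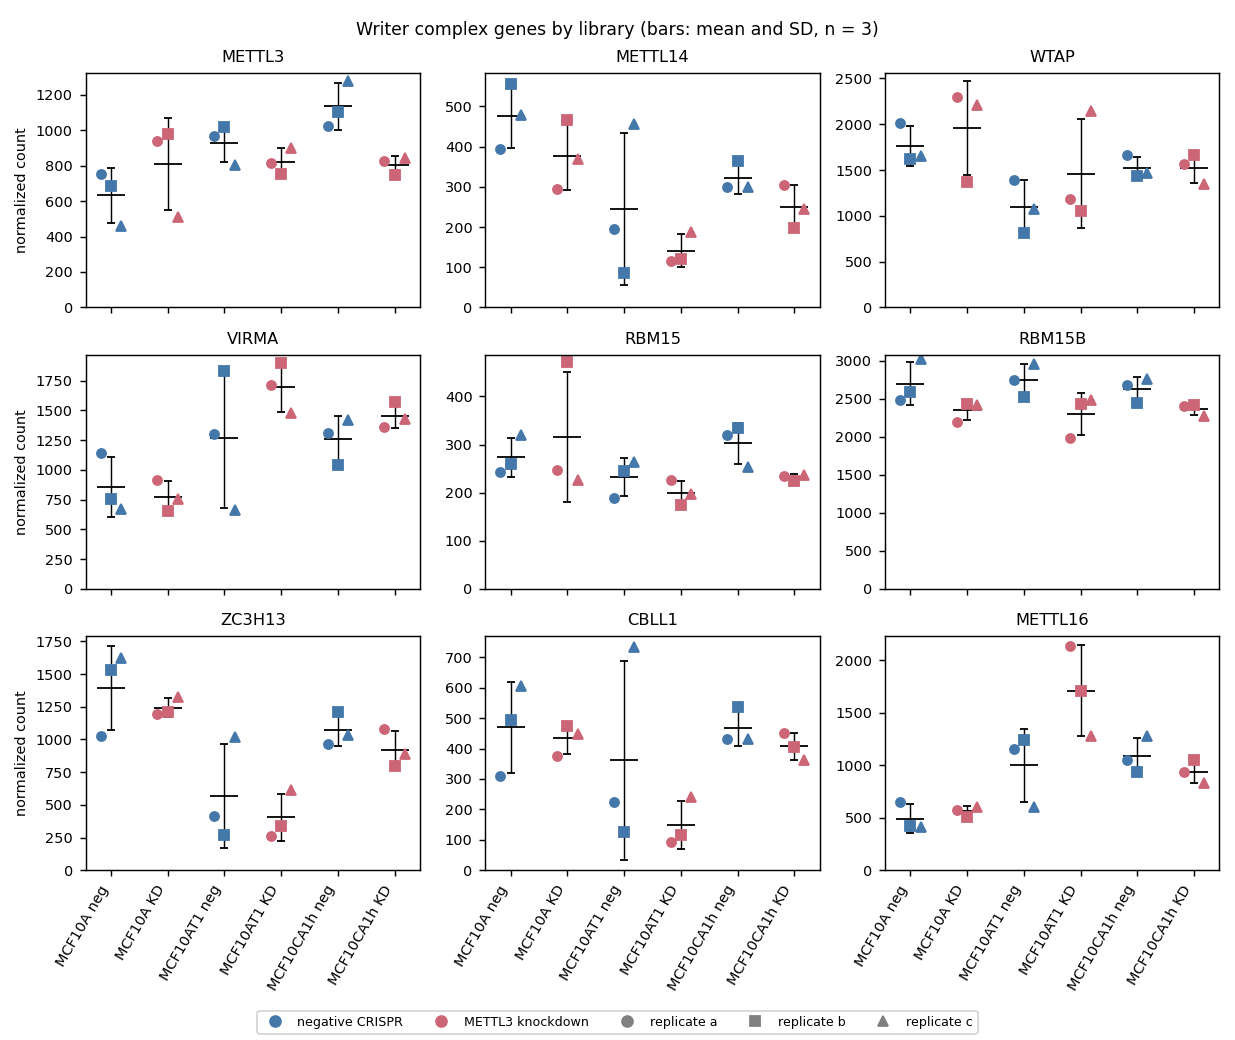
Normalized count of each writer gene (vertical axis, starting at 0) in the 6 groups (horizontal axis; neg, negative CRISPR; KD, labelled METTL3 knockdown). Points are libraries, black bars the mean and SD of 3 libraries, and replicate c of MCF10AT1 negative CRISPR lies away from replicates a and b for METTL14, VIRMA, ZC3H13, CBLL1 and METTL16.

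The first comparison asked what happened to the writer genes where METTL3 had been targeted. In MCF10A, METTL3 itself read 752, 686 and 459 in the negative CRISPR libraries (a, b and c) and 939, 981 and 509.8 in those labelled knockdown. The ranges overlapped. Libraries of the same letter were weakly correlated in this line (0.116 to 0.221), and the labels do not say what the letters mark. METTL3 was higher with the knockdown label for each letter. The log2 fold change was 0.33 (SE 0.30) with an adjusted p of 0.618 (limma on log2 of the normalized count plus 1, Benjamini-Hochberg over all genes tested, as for every adjusted p here). With the replicate letter as a block the SE was 0.16 and the limma adjusted p 0.270. In MCF10AT1 it read 968, 1016 and 805 in the controls and 816, 752 and 902 in the labelled knockdown. These ranges overlapped too, and the log2 fold change of -0.17 (SE 0.26) did not pass (limma adjusted p = 0.707). Its 95% interval, -0.76 to 0.41, includes the -0.49 found in MCF10CA1h.

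In MCF10CA1h, METTL3 fell. It read 1022, 1102 and 1280.4 in the negative CRISPR libraries and 825, 745 and 843 in those labelled knockdown, so that the groups did not overlap. The mean went from 1135 ± 132 to 804 ± 52.3 (SD, n = 3), or to 70.9% of the control, with a log2 fold change of -0.49 (SE 0.12) (limma adjusted p = 0.0234). The call was lost, at an adjusted p of 0.0742 without the intensity trend and 0.501 in a joint fit of the 18 libraries. It was also lost without replicate c of the controls or without replicate b of the knockdown, with log2 fold changes between -0.56 and -0.40 over the 6 fits that each left out a library. The difference of this effect from that in MCF10A was -0.82 on the log2 scale (95% interval -1.53 to -0.11), with an unadjusted p of 0.0261 and a limma adjusted p of 0.200. The block brought this p to 0.0530, and the block with a length and GC correction, described below, to 0.0164. Both blocks also used the letters of MCF10CA1h, where same-letter libraries were not correlated (-0.011 to 0.046). Without replicate c of the MCF10A knockdown, the library with the lowest METTL3 of its group, this difference passed.

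METTL14 was lower on average in the labelled knockdown groups of all 3 lines, without passing in any. In MCF10A it read 395, 556 and 479 in the controls and 295, 467 and 369 in the knockdown libraries. In MCF10CA1h the values were 299.6, 365 and 299 and 306, 197 and 244. The ranges overlapped in both lines. The log2 fold changes were -0.35 (SE 0.23) and -0.38 (SE 0.19), with limma adjusted p-values of 0.477 and 0.209. MCF10AT1 had the lowest group means of METTL14, with libraries at 194, 86.7 and 455 in its controls and 116, 120 and 188 in its knockdown libraries. Replicate c of the controls lay far above replicates a and b. With that library the log2 fold change was -0.51 (limma adjusted p = 0.618), and without it the sign turned to 0.086.

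WTAP, the adaptor of the complex, did not pass in any line. Its libraries read 2010.2, 1619.7 and 1657 in MCF10A controls and 2298, 1372 and 2213 in the labelled knockdown. In MCF10CA1h they read 1661, 1438 and 1463 and 1565, 1664 and 1347, nearly the same mean. The interval of the log2 difference in MCF10CA1h, -0.25 to 0.25, was centred near 0. In MCF10AT1 the controls read 1395, 808 and 1073 and the knockdown libraries 1188, 1054 and 2141, of which replicate c alone lay above the controls.

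RBM15B, one of the RNA-binding adaptors, was the gene whose labelled knockdown libraries lay below the controls without overlap in all 3 lines. The controls read 2489, 2582 and 3026 in MCF10A, against 2197, 2437 and 2415 with the knockdown label. In MCF10AT1 they read 2748, 2521 and 2955 against 1980.2, 2436 and 2477. In MCF10CA1h they read 2684, 2445 and 2756 against 2407, 2421 and 2270.4. The shift was small, to 87.1%, 83.8% and 90.0% of the control means. None of the log2 fold changes, -0.20, -0.26 and -0.15, passed (limma adjusted p = 0.519, 0.536 and 0.322). Non-overlap in either direction was common among all genes, at 23.9% in MCF10A, 32.8% in MCF10AT1 and 32.7% in MCF10CA1h. Of the 9 writer genes it was seen in 1, 2 and 3, and RBM15B was the one they shared. The share of all genes that lay below in all 3 lines was not computed, so this trait of RBM15B has no background. The gaps were narrow, with the lowest control over the highest knockdown library at 2489 over 2437, 2521 over 2477 and 2445 over 2421. Its relative RBM15 read 319, 335 and 254 in MCF10CA1h controls and 235, 225 and 236 in the knockdown libraries, again without overlap (log2 fold change -0.37 (SE 0.16), unadjusted p = 0.0379, limma adjusted p = 0.151). In the other lines RBM15 overlapped, reading 242, 259 and 319 against 248, 472 and 227 in MCF10A, where replicate b of the knockdown was high, and 189, 246 and 265 against 226, 175 and 197 in MCF10AT1.

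METTL16, which acts outside the complex, had its highest level in the labelled MCF10AT1 knockdown. Those libraries read 2139, 1710.5 and 1281, against 1155, 1244 and 599.8 in the controls, and did not overlap with them or with any library of the other 4 groups. The mean was 171% of the control, for a log2 fold change of 0.81 (SE 0.36) with a 95% interval of -0.014 to 1.64, which did not pass (limma adjusted p = 0.188). With the replicate letter as a block METTL16 rose by the same 0.81 with a limma adjusted p of 0.0372. Pairing by letter was less sure in this line than in MCF10A. In a joint fit of the 18 libraries the adjusted p was 0.0288. Without replicate c of the controls, its lowest library, the log2 fold change was 0.48 and the limma adjusted p was 0.371. In MCF10A METTL16 read 648, 417 and 411 in controls and 573, 509.9 and 603 in the knockdown, and in MCF10CA1h 1045, 931 and 1274 and 934, 1050.1 and 835, with overlap in both. The effect in MCF10CA1h differed from that in MCF10AT1 by -1.01 on the log2 scale (95% interval -1.82 to -0.21). The unadjusted limma p was 0.0169 and the limma adjusted p 0.0777, which the block brought to 0.0238. Here too the block included MCF10CA1h, where the letters did not pair the libraries. Replicates a and b of the knockdown, its highest libraries, were among those with the lowest length tilt, and the group was the one with the lowest EPCAM, CDH1 and ESRP1. After a correction for transcript length and GC content, described below, the log2 fold change was 0.98 (SE 0.45) (limma adjusted p = 0.196). METTL16 fell as the tilt rose, and the correction did not remove the tilt from this gene, so the value decides nothing about it. The part of the marker difference in this result was not tested.

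The remaining complex members, VIRMA, ZC3H13 and CBLL1, had wide spreads in MCF10AT1. VIRMA, a scaffold that helps direct methylation toward the 3′ end of mRNAs, read 1301, 1828 and 666 in MCF10AT1 controls and 1711, 1895 and 1481 in the labelled knockdown. ZC3H13, which helps keep the complex in the nucleus, read 413, 271 and 1020.1 and 265, 336 and 611. CBLL1 read 223, 125 and 734 and 92.5, 115 and 239. Replicate c of the controls was the lowest library for VIRMA and the highest for ZC3H13 and CBLL1. The log2 fold changes were 0.53 (SE 0.38), -0.36 (SE 0.53) and -1.0 (SE 0.67), and none passed (limma adjusted p = 0.414, 0.708 and 0.378). These values rest on replicate c of the controls, without which they were 0.13, 0.18 and -0.29. In MCF10CA1h, where replicates were closer, the log2 fold changes of the same 3 genes were 0.22, -0.22 and -0.20 with intervals of -0.072 to 0.51, -0.53 to 0.086 and -0.52 to 0.13. In MCF10A the log2 fold changes were -0.12, -0.14 and -0.07, all with overlap.

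Counted over the writer genes, 0 of 9 passed in MCF10A, 0 of 9 in MCF10AT1 and 1 of 9, METTL3, in MCF10CA1h (limma, adjusted p under 0.05). Among all genes tested, 2.65%, 13% and 12.8% passed, so that the members' shares were at or below the background. The replicate letter as a block treats the libraries of MCF10A and MCF10AT1 as paired, which was not established and was less sure in MCF10AT1. With it the calls over all genes went from 409 to 1172 and from 2091 to 3939. Those among the writer genes were 0 in MCF10A and 1, METTL16, in MCF10AT1. At an unadjusted p under 0.05 there were 0, 0 and 2 writer genes, the pair in MCF10CA1h being METTL3 and RBM15. The median absolute log2 change of the 9 genes was 0.14, 0.38 and 0.22, against 0.28, 0.62 and 0.24 over all genes tested. No writer gene passed in the tests of a difference between lines either. That test passed for 21.6% of all genes between MCF10AT1 and MCF10A, 5.34% between MCF10CA1h and MCF10A, and 18.2% between MCF10CA1h and MCF10AT1. At an unadjusted p under 0.05 it gave 0, 1 and 1 writer genes, which are METTL3 and METTL16 with the values given above.

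**Figure D2:**
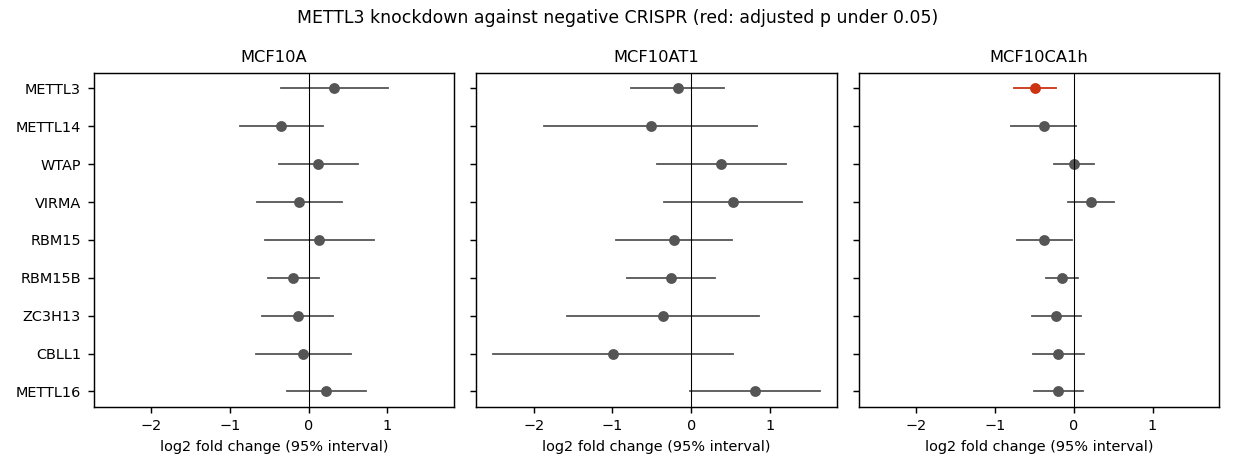
Log2 fold change of each writer gene between libraries labelled METTL3 knockdown and negative CRISPR libraries (horizontal axis, dots, with 95% intervals as lines), in 1 panel per line. METTL3 in MCF10CA1h, at -0.49, is the single red dot (limma adjusted p under 0.05), and the intervals are widest in MCF10AT1.

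Ordered by group mean, METTL3 was highest in MCF10CA1h negative CRISPR, whose libraries lay above all those of the next group, and each of the other neighbours in the order overlapped. RBM15B had its 3 negative CRISPR groups above its 3 labelled knockdown groups, and the lowest control group by mean did not overlap with the highest knockdown group by mean. Single libraries still crossed, since MCF10AT1 knockdown replicate c, at 2477, lay above MCF10CA1h control replicate b, at 2445. METTL16 led in the labelled MCF10AT1 knockdown, apart from the next group, and its labelled MCF10CA1h knockdown libraries lay above those of the next group in the order, the labelled MCF10A knockdown. Its other neighbours overlapped. For METTL14, WTAP, VIRMA, RBM15, ZC3H13 and CBLL1 all neighbours in the order overlapped.

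The second comparison set the negative CRISPR libraries of the lines side by side, to see how the complex differs along the series from MCF10A to MCF10CA1h. METTL3 was lowest in MCF10A and highest in MCF10CA1h, with means of 633 ± 154, 929.9 ± 111 and 1135 ± 132 in line order (SD, n = 3). The libraries of the 3 lines did not overlap. METTL3 rose in MCF10CA1h over MCF10A by 0.87 (SE 0.23) on the log2 scale (limma adjusted p = 0.0158). In MCF10AT1 the difference from MCF10A was 0.58 (SE 0.23), which did not pass (limma adjusted p = 0.0808). METTL16 rose with it in MCF10CA1h, by 1.16 (SE 0.31) (limma adjusted p = 0.0172), from 492 ± 135 to 1083 ± 174. It was also higher in MCF10AT1, at 999.7 ± 349 (log2 fold change 0.98 (SE 0.31), limma adjusted p = 0.0427), although replicate c of MCF10AT1, at 599.8, lay inside the range of MCF10A.

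WTAP and ZC3H13 fell in MCF10AT1. WTAP went from 1762 ± 216 in MCF10A to 1092 ± 294, a log2 fold change of -0.72 (SE 0.22) (limma adjusted p = 0.0397), and was 1521 ± 122 in MCF10CA1h. ZC3H13 read 1029, 1533 and 1619 in MCF10A, 413, 271 and 1020.1 in MCF10AT1 and 968, 1209 and 1036 in MCF10CA1h. Its MCF10AT1 libraries all lay below those of MCF10A, the highest of them just so. The log2 fold change was -1.49 (SE 0.42) (limma adjusted p = 0.0293). METTL14 followed the same order without passing (-1.25, limma adjusted p = 0.0792), and CBLL1 was -0.72 (limma adjusted p = 0.325). VIRMA was higher on average in both derived lines, by 0.48 and 0.58, with wide intervals (-0.32 to 1.29 and -0.23 to 1.38). RBM15 and RBM15B showed little difference between the lines. For RBM15B the means were 2699 ± 287, 2741 ± 217 and 2628 ± 163, and the intervals of all 3 differences stayed between -0.43 and 0.39.

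In all, 3 of 9 writer genes passed between MCF10AT1 and MCF10A (1 higher, 2 lower), 2 of 9 between MCF10CA1h and MCF10A (both higher) and 0 of 9 between MCF10CA1h and MCF10AT1. Among all genes tested the shares were 28.1%, 37.8% and 21.8%. Groups that did not overlap were seen for 3, 3 and 2 of the writer genes, with 37.5%, 63.5% and 41.0% of all genes as background. At an unadjusted p under 0.05 there were 5, 2 and 2. The 3 comparisons share control libraries, so these counts are not independent.

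These counts depended on single libraries. Without replicate c of MCF10AT1, 7 of 9 genes passed between MCF10AT1 and MCF10A. METTL3, VIRMA and METTL16 were then higher, by 0.68, 0.88 and 1.32, and METTL14, WTAP, ZC3H13 and CBLL1 lower, with -1.85, -0.72, -2.03 and -1.43. Without MCF10A replicate b or c, or MCF10AT1 replicate b, 0 passed. WTAP alone passed without MCF10AT1 replicate a, ZC3H13 alone without any 1 of the MCF10CA1h replicates, and ZC3H13 and METTL16 without MCF10A replicate a. METTL3 and METTL16 in MCF10CA1h over MCF10A were lost without MCF10A replicate c or MCF10CA1h replicate c, while METTL16 alone was lost without MCF10A replicate b or MCF10CA1h replicate a. Between MCF10CA1h and MCF10AT1, leaving out MCF10AT1 replicate c gave 3 genes, METTL14, ZC3H13 and CBLL1, all higher in MCF10CA1h.

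**Figure D3:**
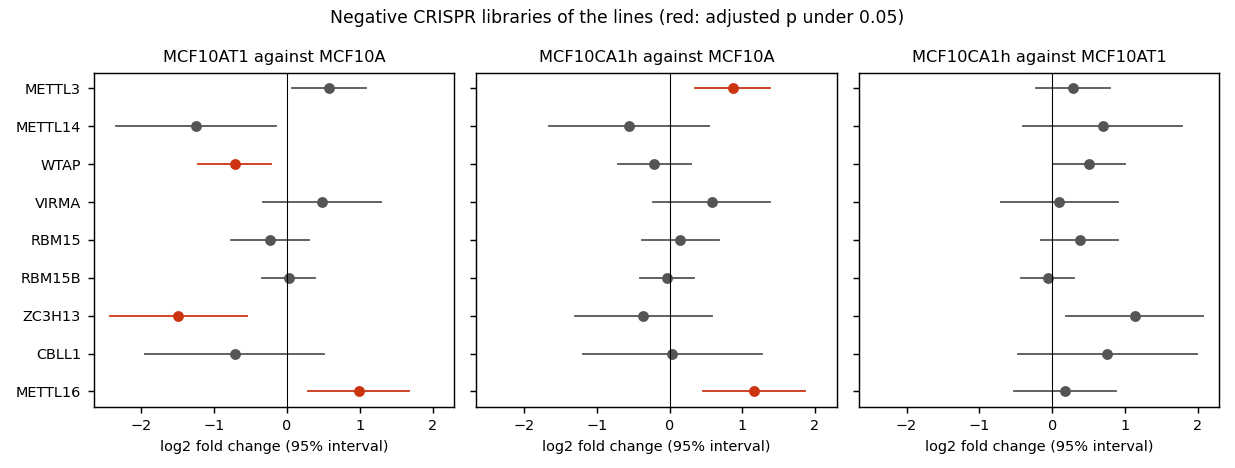
Log2 difference of each writer gene between the negative CRISPR libraries of the lines (horizontal axis, dots, with 95% intervals), in 1 panel per pair of lines. Red dots passed (limma adjusted p under 0.05), with WTAP and ZC3H13 left of 0 and METTL16 right of 0 in MCF10AT1, and METTL3 and METTL16 right of 0 in MCF10CA1h against MCF10A.

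Within the groups, the writer genes split into blocks that varied together from library to library. Each gene's deviation from its group mean was compared with that of the others over the 18 libraries, as a description without a test, since the points share library and depth. ZC3H13 and CBLL1 had a Pearson r of 0.98, and METTL14 had 0.91 and 0.92 with them. VIRMA and METTL16 had 0.88 with each other and ran against these 3, with r between -0.91 and -0.81. METTL3 was in neither block, with r between -0.42 and 0.36. So METTL3 and METTL14, whose proteins work as a pair, had -0.15. The spread of the genes in the blocks was widest in the MCF10AT1 controls, where replicate c stood apart. The SD on the log2 scale was 1.19 for METTL14, 1.295 for CBLL1, 0.97 for ZC3H13, 0.74 for VIRMA and 0.58 for METTL16. In the MCF10A controls these were 0.25, 0.49, 0.36, 0.40 and 0.37. The r values of the blocks therefore lean on the MCF10AT1 controls, and r without them was not computed.

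The same blocks followed the length tilt of the libraries. The deviation of METTL14, ZC3H13 and CBLL1 had an r of 0.93, 0.97 and 0.99 with that of the tilt. VIRMA and METTL16 had -0.94 and -0.92. These values too lean on the MCF10AT1 controls, whose tilt ran from -1.19 to 0.74. METTL3, WTAP and RBM15 had -0.28, 0.26 and 0.28, and RBM15B 0.59. Among 12460 genes with a mean of at least 50, 15.1% had an r above 0.8 and 14.0% one below -0.8. Transcript length and GC content did not sort the members alone. VIRMA (6478 bases, 40.4% GC) and METTL14 (6642 bases, 38.3% GC) are alike in both and moved in opposite directions.

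A correction was therefore tried, chosen after the data had been seen, that removed from each library the median deviation in bins of transcript length and GC content. After it, ZC3H13 was still lower in MCF10AT1 than in MCF10A, by -0.82 in place of -1.49, with a limma adjusted p of 0.0365. WTAP was at -0.61 (limma adjusted p = 0.0388), METTL16 at 1.31 (limma adjusted p = 0.0493) and METTL14 at -0.29 (limma adjusted p = 0.474). In MCF10CA1h against MCF10A the correction gave 0.57 for METTL3 (limma adjusted p = 0.0319) and 1.34 for METTL16 (limma adjusted p = 0.0332). METTL3 in the labelled MCF10CA1h knockdown was at -0.54 (limma adjusted p = 0.0080). The calls of the uncorrected fits among the writer genes all held, while the differences of ZC3H13, METTL14 and METTL3 from MCF10A were smaller. For METTL16 and VIRMA, which fell as the tilt rose, the correction did not remove the tilt. Their differences from MCF10A grew and the SE rose, for METTL16 in MCF10AT1 from 0.31 to 0.43. Neither the METTL16 calls that held nor these larger values therefore show an effect free of the tilt. VIRMA was at 1.31 in place of 0.48 for MCF10AT1 (limma adjusted p = 0.122) and 1.34 in place of 0.58 for MCF10CA1h (limma adjusted p = 0.0983). In the labelled MCF10AT1 knockdown VIRMA was at 1.01 in place of 0.53 (limma adjusted p = 0.310). ZC3H13 was in addition higher in MCF10CA1h than in MCF10AT1, by 1.08 (limma adjusted p = 0.0107), against 1.13 uncorrected (limma adjusted p = 0.0832).

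**Figure D4:**
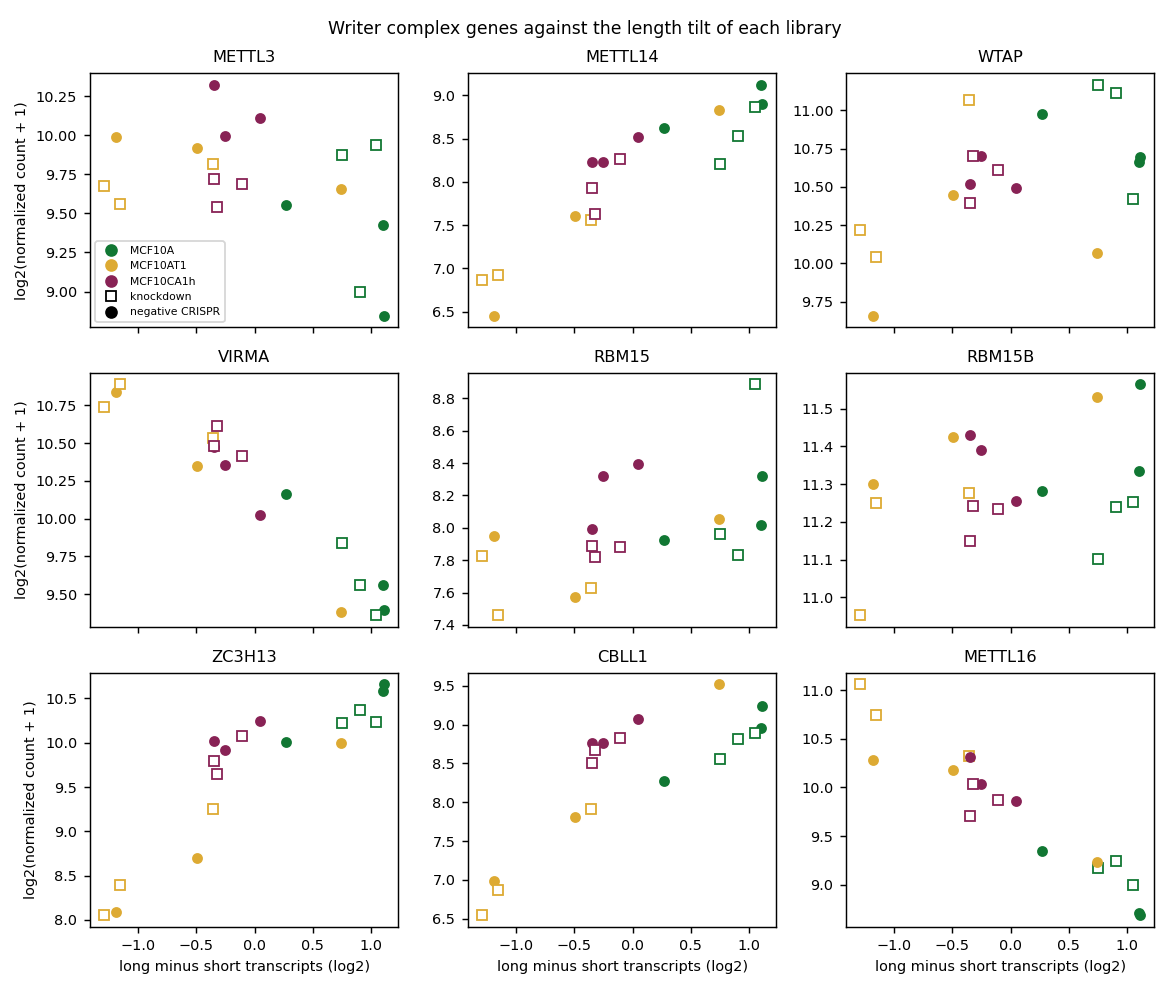
Log2 of the normalized count plus 1 of each writer gene (vertical axis, own scale per panel) against the length tilt of its library (horizontal axis, log2), with colours for lines, filled circles for negative CRISPR and open squares for libraries labelled knockdown. METTL14, ZC3H13 and CBLL1 rise along the axis and VIRMA and METTL16 fall, while METTL3, WTAP, RBM15 and RBM15B scatter.

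For the 3 genes that moved together, METTL14, ZC3H13 and CBLL1, the 120 bases before the annotated start were read from the RefSeq promoter table (GRCh38.p14). They are shown because all 3 hold the letters CCGGAAG or their reverse complement CTTCCGG, a core recognized by the ETS family of transcription factors, which are in capitals. The motif was picked after the letters had been seen, because all 3 hold it, so its share among the writer genes is no test. These 3 genes also followed the length tilt of the libraries. Within the printed bases the motif begins 36, 34 and 57 bases before the start in METTL14, ZC3H13 and CBLL1. In the wider window described below, METTL14 and ZC3H13 had 2 matches each and CBLL1 had 1.
METTL14 (chr4:118685272-118685391, plus strand): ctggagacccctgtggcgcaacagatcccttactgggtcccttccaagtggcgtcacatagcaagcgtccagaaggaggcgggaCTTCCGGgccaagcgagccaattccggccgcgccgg
ZC3H13 (chr13:46052747-46052866, minus strand): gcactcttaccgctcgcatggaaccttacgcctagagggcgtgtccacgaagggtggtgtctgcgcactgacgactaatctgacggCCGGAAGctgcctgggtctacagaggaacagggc
CBLL1 (chr7:107744022-107744141, plus strand): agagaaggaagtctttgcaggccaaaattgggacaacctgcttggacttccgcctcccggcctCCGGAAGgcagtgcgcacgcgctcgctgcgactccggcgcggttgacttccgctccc
On either strand of the windows from 250 bases before to 50 after the start, the motif was in 4 of the 9 promoter entries matched to writer genes, and in 10.3% of 35116 promoters in the table. The fourth was that of METTL3, which did not move with these genes. WTAP had 2 entries, and VIRMA was not among those matched. A match describes letters and not a bound site.

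Across the 18 libraries the genes most like METTL3 were ALG12 (Pearson r 0.79 on the log2 scale), E2F2 (0.78), CDC42EP4 (0.78), MOCS1 (0.78) and ZNF232 (0.77), among genes with a mean of at least 50. Those that ran most against it were CCDC71L (-0.81), MOSMO (-0.78), FBLIM1 (-0.78), IL13RA1 (-0.78) and ERLEC1 (-0.78). E2F2, a transcription factor of the cell cycle, went from a mean of 21.3 in MCF10A to 346 in MCF10CA1h negative CRISPR cells and was 162 in the labelled MCF10CA1h knockdown. The writer genes were not among these. METTL16 had an r of 0.46 with METTL3 and VIRMA 0.41, and the other 6 were between -0.28 and 0.13.

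The wider set of related genes was read from lists of 33 genes, namely other RNA adenosine methyltransferases, SAM supply and recycling, erasers and YTH readers, and relatives of the methyltransferase fold. All 33 were tested. With the knockdown label 0 passed in MCF10A, 2 fell in MCF10AT1 and 1 rose in MCF10CA1h, of 33 each, against 2.65%, 13% and 12.8% of all genes tested. ADK, which clears the adenosine left after methylation, fell in MCF10AT1 from 3364, 4164 and 2319 to 1183, 1586 and 1391, with a log2 fold change of -1.21 (limma adjusted p = 0.0321). METTL8, a tRNA methyltransferase, fell there from 1281, 762 and 1459 to 221, 281 and 479.6, with a log2 fold change of -1.85 (limma adjusted p = 0.0172). ALKBH5, an m6A demethylase, rose in MCF10CA1h by 0.51 (limma adjusted p = 0.0262), from 3252, 3248 and 3441 to 4585, 5737 and 3983. Between the negative CRISPR libraries 6 of the 33 were higher and 3 lower in MCF10AT1 than in MCF10A. In MCF10CA1h 8 were higher and 5 lower than in MCF10A, and 2 higher and 1 lower than in MCF10AT1. The shares of all genes tested were 28.1%, 37.8% and 21.8%, so that the related genes were near or below the background.

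MAT2A, the SAM synthetase whose mRNA METTL16 methylates, was followed by library. In MCF10A it read 33805, 18147 and 12933 in the controls and 54272, 41307 and 88955 in the labelled knockdown. The groups did not overlap, and the log2 fold change of 1.55 (SE 0.39) had an unadjusted p of 0.00385 and a limma adjusted p of 0.0817. In MCF10AT1 the controls read 24004, 6396 and 24451 and the knockdown libraries 7659, 7266 and 15343, with overlap. In MCF10CA1h all 6 libraries lay between 5245 and 6797. MAT2A fell between the MCF10A and MCF10CA1h controls, with a log2 fold change of -1.70 (limma adjusted p = 0.0267).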

How the data were processed

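RNA-seq of 18 libraries in 6 groups was used. The deposited values are normalized counts (a signal per gene), which the authors made with Kallisto 0.46.1, tximport and DESeq2 1.26.0 in R 4.1.1 on hg38. The annotation release is not given in the sources used here. The labels name polyA RNA and the protocol a ribosomal-depletion kit, and the difference could not be settled. Whole reads could not be recovered, so the depth behind a gene is unknown. Columns not used numbered 0.

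Values were tested as log2(normalized count + 1) among genes with a mean of at least 10, with limma 3.58.1 (R 4.3.3), an intensity trend, two-sided tests and Benjamini-Hochberg adjustment over all genes tested, at a threshold of 0.05. A fold change on this scale understates the change of low genes. Each line was fitted alone, the 9 negative CRISPR libraries together, and differences of effects in 1 fit of 18 libraries. Tables and figures were made with Python 3.11.15, pandas 2.3.3, NumPy 2.4.6 and SciPy 1.17.1. Scripts were tested on simulated data.

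Same-letter replicates had correlated deviations (15897 genes) of 0.116 to 0.221 in MCF10A and 0.11 to 0.477 in MCF10AT1, which counted as paired. In MCF10CA1h they had -0.011 to 0.046, which did not count. MCF10A control replicate b and MCF10AT1 control replicate c, of unlike letters and lines, had 0.355. What the letters mark is not given, so a pairing is not established. In MCF10AT1 the pairing was less sure. There control replicate b and knockdown replicate a had 0.251, above the 0.11 of the 2 libraries lettered a. Alternatives changed the pseudocount, filter, scaling, trend, threshold, fit, weights and block, and left out each library. The length and GC correction (10 bins per axis, at least 20 genes per bin), alone and with the block, was chosen after seeing the data. The members and lists were chosen with earlier results of these data known. Named were all members, MAT2A, related genes past the threshold in a knockdown comparison (at most 3 per list and line), and the 5 genes most like and most unlike METTL3. CDKN2A and CDKN2B were not analysed here.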

Additional observations from a re-analysis of the deposited data

Results flagged for a closer look

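The effects of the knockdown label differed between lines, by a test of the difference itself, for 8 of the 33 related genes between MCF10AT1 and MCF10A (all lower in MCF10AT1), for 0 between MCF10CA1h and MCF10A and for 6 between MCF10CA1h and MCF10AT1 (all higher in MCF10CA1h). Among all genes tested 21.6%, 5.34% and 18.2% passed. The values given are those of the 3 genes named by the rule for named genes. For MAT2A, the effect in MCF10AT1 minus that in MCF10A was -2.26 on the log2 scale (limma adjusted p = 0.0197). For ADK, the difference was -1.02 between the same lines (limma adjusted p = 0.0081) and 1.14 for MCF10CA1h minus MCF10AT1 (limma adjusted p = 0.0046). For METTL8, it was -2.59 for MCF10AT1 minus MCF10A (limma adjusted p = 9.69e-05) and 1.88 for MCF10CA1h minus MCF10AT1 (limma adjusted p = 0.0019). All these differences involve MCF10AT1, whose control replicate c stood apart in length tilt. The related genes were read from the main fit alone. Their dependence on single libraries, the block or the tilt was not tested.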

How the results depend on the processing

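Of 60 log2 fold changes (all writer genes in the knockdown and control comparisons, and METTL3 and METTL16 alone in the differences of effects), 44 never changed sign under any alternative run. The number of writer genes called in the labelled MCF10AT1 knockdown went from 0 to 1 in the joint fit, with the replicate block and with the length and GC correction plus block. In MCF10CA1h it went from 1 to 0 without the trend, in the joint fit and at an adjusted p under 0.01. Between the MCF10AT1 and MCF10A controls, 3 became 1 without the filter, without the trend or with equal sums, and 0 at the stricter threshold. It was 4 in the joint fit (METTL14 added, limma adjusted p = 0.0279) and 2 with the block, alone or with the correction (METTL16 lost). Between MCF10CA1h and MCF10A, 2 became 0 at that threshold and 1 with the correction plus block. Between MCF10CA1h and MCF10AT1, 0 became 1 in the joint fit and with the correction, with or without block. The differences of effects went from 0 to 4, 1 and 2 with array weights (in the order MCF10AT1 minus MCF10A, MCF10CA1h minus MCF10A, MCF10CA1h minus MCF10AT1), to 1, 1 and 1 with the correction plus block, and for the last to 1 with the block. Of the 4, 1 was a reversal, WTAP at -0.66 (limma adjusted p = 0.0026) against 0.26. Leaving out single libraries gave 0 to 0, 0 to 0 and 0 to 1 calls in the knockdowns, 0 to 7, 0 to 2 and 0 to 3 between controls, and 0 to 0, 0 to 1 and 0 to 1 for differences of effects. The cause was not tested.

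Signs turned with equal sums for CBLL1 in the MCF10A knockdown (0.018), WTAP in the MCF10CA1h knockdown (-0.056), and RBM15B between MCF10AT1 and MCF10A (-0.11) and between MCF10CA1h and MCF10AT1 (0.055). With the correction, with and without block, they turned for WTAP in the MCF10CA1h knockdown (-0.030), CBLL1 between MCF10AT1 and MCF10A (0.17), and METTL14 (0.21) and ZC3H13 (0.25) between MCF10CA1h and MCF10A. Leaving out libraries in the MCF10A knockdown gave -0.0092 to 0.36 for WTAP, -0.27 to 0.11 for VIRMA, -0.19 to 0.33 for RBM15 and -0.34 to 0.14 for CBLL1. It gave -1.10 to 0.086 for METTL14 and -0.78 to 0.18 for ZC3H13 in MCF10AT1, and -0.064 to 0.089 for WTAP in MCF10CA1h. Between controls it gave -0.031 to 0.11 and -0.091 to 0.050 for RBM15B (MCF10AT1 and MCF10CA1h against MCF10A), -0.23 to 0.25 for CBLL1 (MCF10CA1h against MCF10A), and -0.31 to 0.42 for VIRMA and -0.16 to 0.37 for METTL16 (MCF10CA1h against MCF10AT1). Over all genes, calls in the knockdowns were 1172, 3939 and 1876 with the block and 610, 5146 and 248 in the joint fit (MCF10A, MCF10AT1, MCF10CA1h). Without MCF10AT1 control replicate c they were 8142 against MCF10A and 5593 for MCF10CA1h against MCF10AT1, and array weights gave 10305, 4395 and 10279 for the differences of effects. In MCF10CA1h and across control lines the letters did not pair the libraries, and in MCF10CA1h the block left METTL3 called (limma adjusted p = 0.0311). With 3 libraries a group and a depth that is unknown, small changes of the writer genes could not be detected.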
